A study of Oryctolagus cuniculus with 4 samples.

Results

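The genes described here serve the early secretory pathway, from the entry of new proteins into the endoplasmic reticulum (ER) to their transport to and from the Golgi. They were taken from the expression table by symbol, as families of the signal recognition particle, the translocon, the signal peptidase, the PDIA disulfide isomerases, the DERL genes and the COPII and COPI coats with their cargo receptors. The families gave 47 of the 13913 genes in the table, and 46 of them were expressed highly enough to be tested. The remaining gene, SEC14L3, a lipid-binding protein that shares only the first letters of its name with the coat genes, was listed at 0 in all 4 libraries. Several well-known genes of the pathway (HYOU1, CALR, CANX, PDIA6, SEC61B, SEC13, KDELR1 and KDELR2) were not analysed here.

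The libraries came from rabbit ear hypertrophic scar (HS), a raised wound scar rich in collagen, of wild-type animals. The HS group (2 libraries) received no treatment. The drug-loaded MNs group (2 libraries) received microneedle (MN) patches whose tips release a fluorouracil prodrug, once a week for 3 weeks. The ventral epidermis and dermis were dissociated and prepared with a droplet single-cell kit, but each gene had 1 value for a whole library and none per cell, so a change in the number of cells of a type and a change in RNA per cell cannot be told apart. No library with drug-free MNs was analysed here, so the effect of the drug and that of the needles cannot be told apart either. 1 unit below is 1 part in 1000000 of a library's total expression.

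Proteins that are to be secreted, such as procollagen, carry a signal sequence that the signal recognition particle (SRP) binds on the ribosome. SRP docks the ribosome at the SEC61 channel, through which the chain enters the ER, where the signal peptidase removes the signal and chaperones and disulfide isomerases fold the chain. Folded cargo leaves in vesicles with a COPII coat, whose inner layer is made of SEC23 and SEC24 and whose outer layer contains SEC31. Vesicles with a COPI coat carry escaped ER proteins back. Fibroblasts, the main makers of dermal collagen, depend on large COPII carriers, which MIA3 helps to load with procollagen.

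Markers described the makeup of the libraries. Each of the 6 tested fibroblast markers stood higher after drug-loaded MNs, with summed levels of 22996 and 22526 units in HS and 44682 and 48616 units in drug-loaded MNs. All 8 tested macrophage markers were higher too, with sums of 132 and 140 units in HS and 313 and 308 units in drug-loaded MNs. The sums of the 4 suprabasal keratinocyte markers overlapped between the groups, at 36817 and 52315 units in HS and 31363 and 41238 units in drug-loaded MNs, and so did those of the 4 basal markers. By mean log2 values 3 of 4 suprabasal and 3 of 4 basal markers were lower. With median ratio scaling 4 of 4 were lower in each list, and with quantile normalization 1 suprabasal and 3 basal markers were. All 4 mural and all 4 Schwann markers were higher by their mean log2 values, with median differences of 0.55 and 0.68. The Schwann median was -0.07 without HS replicate 1. In plain units the Schwann marker S100B had the lower mean in drug-loaded MNs, at 151 against 214 units in HS. The only T cell marker tested, CD4, was higher by 1.29. The sums of the mural and of the Schwann markers overlapped between the groups. So did those of the plasma cell, cycling, chondrocyte, endothelial and mast markers. By mean log2 values, 3 of 4 plasma cell, 3 of 3 cycling, 1 of 3 chondrocyte, 4 of 5 endothelial and 2 of 3 mast markers were higher. The 4 tested genes listed for a response to tissue dissociation (FOS, JUN, EGR1 and ATF3) were lower in all 3 scalings. Their sums overlapped, and their median of -0.15 was 0.20 without HS replicate 2. Single libraries could stand apart. The plasma cell marker JCHAIN had 0.34 and 0.48 units in HS and 0.92 and 10.1 units in drug-loaded MNs. Chondrocyte sums were 393 and 97.8 units in HS. No gene of these lists was at 0 in all libraries. Mitochondrially encoded genes held 2.75% and 2.80% of each HS library and 4.37% and 4.58% of each drug-loaded MNs library. Of these 13 genes, 4 were at 0 in all libraries, so the share rests on the other 9. The part of these markers and of the mitochondrial share in the results below was not tested.

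To examine whether drug-loaded MNs altered the secretory pathway, the 46 genes were compared between the groups. Their summed expression made up 0.490% and 0.450% of each HS library and 0.553% and 0.530% of each drug-loaded MNs library, without overlap of the groups. The median log2 fold change was 0.40 for the COPII genes, 0.33 for the COPI genes and 0.10 for the translocon genes. With median ratio scaling these medians were 0.26, 0.19 and -0.04, against -0.01 for all genes. With quantile normalization they were 0.23, 0.28 and 0.13, against -0.02 for all genes. Differences between these groups of genes were not tested. Without HS replicate 1 the order of COPII and translocon turned, with medians of 0.15 and 0.27. The individual differences were small. Log2 fold changes (drug-loaded MNs minus HS) ran from -0.25 for SEC61A2 to 0.88 for PDIA5, and the median was 0.23, against 0.12 over all 9348 genes tested. Without HS replicate 2 these medians were 0.20 and 0.19. Of the 46 genes, 39 were higher in drug-loaded MNs and 7 lower, against 27 and 19 with median ratio scaling and 31 and 15 with quantile normalization. Of all genes, 64.6%, 48.7% and 47.5% were higher in these 3 settings. In the unaltered scaling, 27 lay above the median of all genes.

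In limma 0 of the 46 genes reached an adjusted p of 0.05, where 0.0428% of all genes did (4 genes). Their limma adjusted p values lay between 0.352 and 0.993. An unadjusted p under 0.05 was found for 5 genes, each higher in drug-loaded MNs (10.9% of the 46, against 7.26% of all genes), namely PDIA5, SEC24D, LMAN1, COPZ2 and SEC23A. In the lower direction there were 0 genes, against 1.39% of all genes. The count of 5 was 1 without drug-loaded MNs replicate 1 (COPZ2, against 4.13% of all genes) and 1 without drug-loaded MNs replicate 2 (PDIA5, against 6.91% of all genes). It was 2 with median ratio scaling, against 5.29% of all genes. The libraries of the groups did not overlap in 21 genes that were higher in drug-loaded MNs (45.7% of the 46, against 26.6% of all genes) and in 3 that were lower (6.52%, against 11.2% of all genes). These 3 were SRP72, SEC61A2 and SEC22C. These counts moved with the scaling. With median ratio scaling, under which the median of all genes was -0.01 in place of 0.12, 14 genes were higher and 5 lower without overlap, against 18.4% and 20.5% of all genes. SEC61A1, SEC62, SSR1, SEC11C, PDIA3, TMED10 and KDELR3, described below as without overlap, overlapped under that scaling.

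**Figure D1:**
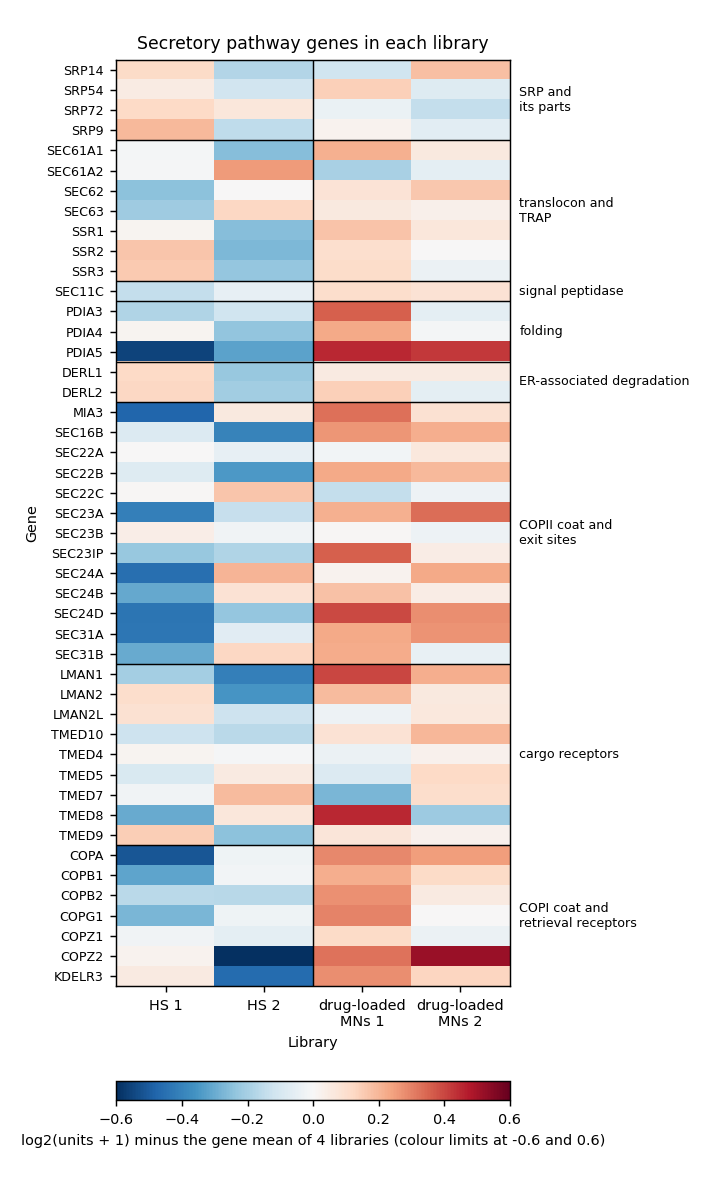
Heat map of the 46 tested genes (rows, grouped by role) in the 4 libraries (columns), with colour for log2(units + 1) minus the gene's mean over the libraries. Most rows of the COPII and COPI groups are blue in at least 1 HS library and red in both drug-loaded MNs libraries, while SRP and translocon rows are pale or mixed.

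SRP genes gave no common direction. SRP is a ribonucleoprotein, and its table members were SRP9 and SRP14, which bind the end of its RNA that pauses translation, SRP54, which binds the signal sequence, and SRP72. The median of the 4 log2 fold changes was 0.01, and -0.13 under median ratio scaling. SRP14 stood at 277 and 226 units in HS and 235 and 290 units in drug-loaded MNs, so the groups overlapped. SRP54 stood at 57.7 and 51.5 units in HS and 61.7 and 52.7 units in drug-loaded MNs, with a log2 fold change of 0.06 (SE 0.23). SRP72 was lower in both drug-loaded MNs libraries, at 118 and 109.5 units, than in HS, at 131.5 and 127 units (log2 fold change -0.18, SE 0.21, adjusted p 0.877 in limma). SRP9 differed by -0.04 on the log2 scale.

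The translocon consists of the SEC61 channel, its partners SEC62 and SEC63, and the translocon-associated protein (TRAP) complex encoded by the SSR genes. The median over its 7 genes was 0.10, and it was -0.04 under median ratio scaling and 0.27 without HS replicate 1. SEC61A1, the main channel subunit, stood at 86.7 and 73.0 units in HS and 101 and 91.1 units in drug-loaded MNs. The groups did not overlap, and the log2 fold change was 0.27 (SE 0.22, adjusted p 0.822 in limma). With median ratio scaling it was 0.13 and the groups overlapped, as they did with quantile normalization. SEC61A2, its paralog, pointed the other way, with 9.82 and 11.97 units in HS and 8.49 and 9.44 units in drug-loaded MNs (log2 fold change -0.25, SE 0.27, adjusted p 0.869 in limma).

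The TRAP genes SSR2 and SSR3 differed more within HS than between the groups. SSR3 had 525 units in HS replicate 1 and 401 in HS replicate 2, and both drug-loaded MNs libraries lay between, at 508 and 459 units. SSR2 had 506 and 373 units in HS and 483 and 450.4 units in drug-loaded MNs. SSR1 was higher in drug-loaded MNs without overlap, by 0.24 on the log2 scale, as was SEC62, by 0.25, and SEC63 overlapped.

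SEC11C, a catalytic subunit of the signal peptidase, was the only gene of that complex analysed here. It stood at 114 and 122 units in HS and 136 and 134 units in drug-loaded MNs. Both drug-loaded MNs libraries were higher, with a log2 fold change of 0.19 (SE 0.21, adjusted p 0.868 in limma).

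Each of the 3 disulfide isomerases was higher in drug-loaded MNs, also under both other scalings. Their median was 0.30 on the log2 scale, and it was 0.16 with median ratio scaling, 0.10 without drug-loaded MNs replicate 1 and 0.51 when replicate 2 of that group was left out. PDIA5 had the largest difference of the 46 genes. Its level was 14.4 and 17.2 units in HS and 30.05 and 29.5 units in drug-loaded MNs, that is 15.8 ± 1.96 against 29.8 ± 0.385 units (SD, n = 2 each). The gap between the groups was wider than the spread within either of them. Its log2 fold change was 0.88 (SE 0.25, adjusted p 0.352 in limma), and it ranged from 0.73 to 0.996 over 14 alternative settings.

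PDIA3, which works with calnexin and calreticulin on glycoproteins, depended on a single library. It stood at 270.5 and 282 units in HS and at 393 and 295 units in drug-loaded MNs. Without drug-loaded MNs replicate 1, its log2 fold change of 0.30 became 0.09. PDIA4 overlapped between the groups, at 186 and 156 units in HS and 216 and 183 units in drug-loaded MNs. DERL1 and DERL2, which take part in the removal of misfolded proteins from the ER, differed by 0.11 and 0.08 on the log2 scale, by -0.04 and -0.06 under median ratio scaling, and both overlapped.

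**Figure D2:**
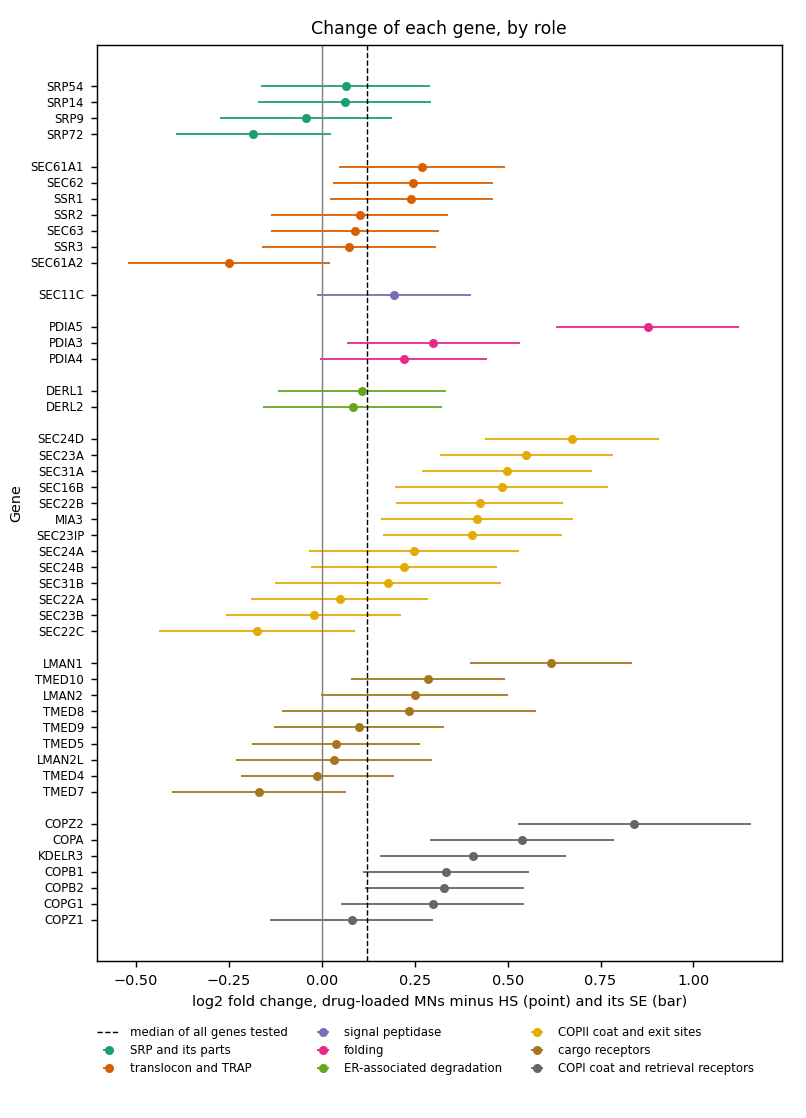
Log2 fold change (drug-loaded MNs minus HS, points) and its SE (bars) of the 46 tested genes, grouped and coloured by role, with the median of all genes tested (0.12) as a dashed line. PDIA5, COPZ2, SEC24D, LMAN1 and SEC23A lie farthest to the right and SEC61A2 farthest to the left, while all 7 COPI and retrieval genes lie above 0 (COPZ1 lies at -0.06 under median ratio scaling).

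In the COPII group, 11 of 13 genes were higher in drug-loaded MNs (10 with median ratio scaling and 9 with quantile normalization). Of all genes, 64.6% were higher, 48.7% with median ratio scaling and 47.5% with quantile normalization. Without overlap, 7 of the 13 were higher and 1 (SEC22C) lower, against 26.6% and 11.2% of all genes. The median of the COPII group was 0.40 on the log2 scale. Without HS replicate 1 this median was 0.15, against 0.04 for all genes. SEC23A, mutated in a human disorder of skull and lens, stood at 34.9 and 42.4 units in HS and 54.5 and 59.3 units in drug-loaded MNs. Both drug-loaded MNs libraries lay above both HS libraries (38.7 ± 5.30 against 56.9 ± 3.38 units, SD, n = 2 each), and its difference was 0.55 on the log2 scale (SE 0.23, adjusted p 0.566 in limma). In the unaltered scaling its paralog SEC23B had nearly the same level in every library. It stood at 25.4 and 24.3 units in HS and 24.8 and 24.1 units in drug-loaded MNs (log2 fold change -0.02, SE 0.24). With median ratio scaling and with quantile normalization this value was -0.16. There SEC23B was lower without overlap, as were 20.5% and 20.7% of all genes.

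SEC24 proteins select the cargo. SEC24D, mutated in a human brittle-bone disorder, stood at 25.2 and 29.2 units in HS and 45.7 and 42.0 units in drug-loaded MNs. The groups lay well apart (27.2 ± 2.83 against 43.9 ± 2.60 units, SD, n = 2 each), and the log2 fold change was 0.67 (SE 0.23, adjusted p 0.447 in limma). SEC24A overlapped, with 32.3 and 51.5 units in HS and 45.2 and 52.4 units in drug-loaded MNs. In this gene HS replicate 1 stood apart from the other 3 libraries. Without it the log2 fold change of 0.25 became -0.08. SEC24B overlapped as well, with a log2 fold change of 0.22.

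The outer coat gene SEC31A stood at 80.6 and 104 units in HS and 128 and 132 units in drug-loaded MNs. Both drug-loaded MNs libraries were higher, by 0.50 on the log2 scale (SE 0.23, adjusted p 0.622 in limma). SEC31B, its paralog, was at 4.22 and 6.02 units in HS and 6.53 and 5.24 units in drug-loaded MNs and overlapped.

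Some genes around the exit sites were higher too. MIA3 stood at 63.0 and 91.7 units in HS and 111 and 93.7 units in drug-loaded MNs. The lower drug-loaded MNs library exceeded the higher HS library only slightly, and the log2 fold change of 0.42 was 0.15 without HS replicate 1. SEC23IP, a partner of SEC23, had 28.8 and 29.7 units in HS and 43.7 and 34.9 units in drug-loaded MNs. SEC16B, a scaffold of exit sites, had a log2 fold change of 0.48 on a low level of 3.86 to 6.72 units. With quantile normalization this value was 0.23 and the groups overlapped. Of the SEC22 membrane fusion (SNARE) family, SEC22B stood at 61.0 and 50.6 units in HS and 75.8 and 74.0 units in drug-loaded MNs. Its relatives SEC22A and SEC22C had log2 fold changes of 0.05 and -0.17. SEC22A overlapped and was at -0.09 under both other scalings, while SEC22C was lower without overlap.

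**Figure D3:**
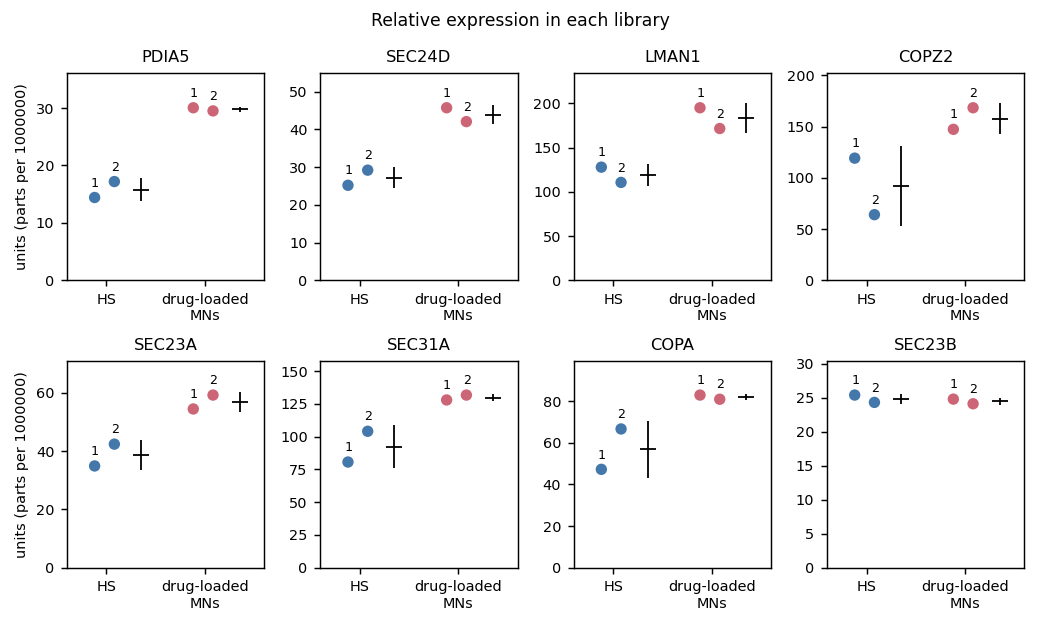
Relative expression in units (parts per 1000000, linear axes from 0) of 8 genes in the HS (blue) and drug-loaded MNs (red) libraries, with replicate numbers above the points and the mean ± SD of each group (n = 2) as black marks. The groups do not overlap in 7 of the genes, while in SEC23B all 4 libraries lie between 24.1 and 25.4 units. With median ratio scaling and with quantile normalization, not drawn here, SEC23B was lower without overlap.

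Among the cargo receptors, LMAN1 stood out. It is the mannose-binding receptor of the compartment between ER and Golgi and carries coagulation factors V and VIII. It stood at 128 and 111 units in HS and 195 and 171.5 units in drug-loaded MNs. The groups did not overlap (119 ± 12.2 against 183 ± 16.6 units, SD, n = 2 each), and the log2 fold change was 0.62 (SE 0.22, adjusted p 0.460 in limma). LMAN2, a related lectin, overlapped, with 52.1 and 37.5 units in HS and 55.2 and 50.4 units in drug-loaded MNs.

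The TMED family, small membrane proteins that sort cargo into vesicles, showed little difference. TMED10 was higher without overlap, at 178 and 174 units in HS and 206 and 223 units in drug-loaded MNs (log2 fold change 0.29, adjusted p 0.791 in limma). TMED9 overlapped, at 224 and 169.6 units in HS and 212 and 205 units in drug-loaded MNs. TMED4 lay between 129.5 and 135 units in all 4 libraries. TMED7 had the most negative value of the receptors, -0.17, with 158 and 183 units in HS and 132 and 172 units in drug-loaded MNs. The median over the 9 receptors was 0.10, against -0.04 with median ratio scaling and -0.05 with quantile normalization.

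The 7 genes of the COPI coat and of retrieval to the ER were higher in drug-loaded MNs, against 64.6% of all genes. Of these 7, 6 were higher without overlap, against 26.6% of all genes. COPZ1 overlapped, and it turned to -0.06 under median ratio scaling. KDELR3 overlapped under that scaling, where 18.4% of all genes were higher without overlap. The median of the COPI group was 0.33. COPZ2, which with COPZ1 forms a pair of alternative small coat subunits, stood at 119 and 64.1 units in HS and 147 and 168 units in drug-loaded MNs. Both drug-loaded MNs libraries were higher, but the HS libraries differed by 0.88 on the log2 scale. The log2 fold change of 0.84 (SE 0.31, adjusted p 0.486 in limma) was 0.40 without HS replicate 2. COPZ1 lay at 52.2 and 50.7 units in HS and 57.4 and 51.6 units in drug-loaded MNs.

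COPA, the large coat subunit whose human mutations cause an inflammatory disease of lung and joints, had 47.3 and 66.7 units in HS and 83.0 and 80.9 units in drug-loaded MNs. It was higher in both, by 0.54 on the log2 scale (SE 0.25, adjusted p 0.622 in limma). COPB1, COPB2 and COPG1 differed by 0.33, 0.33 and 0.30, also without overlap, and COPG1 by 0.15 without drug-loaded MNs replicate 1. KDELR3, which returns proteins ending in KDEL to the ER, stood at 107 and 74.6 units in HS and 125 and 113 units in drug-loaded MNs. It did not overlap, and its log2 fold change of 0.41 was 0.15 without HS replicate 2.

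Ratios between related genes, formed from value + 1, depend little on the factor by which a library is scaled, except for low genes. The log2 ratio of SEC23A to SEC23B was 0.45 and 0.78 in the HS libraries, against 1.11 and 1.26 after drug-loaded MNs. The ratio was higher in drug-loaded MNs by 0.57, against a pooled SD of 0.18. The log2 ratio of LMAN1 to LMAN2 was higher by 0.37 (pooled SD 0.13), that of SEC61A1 to SEC61A2 by 0.52 (pooled SD 0.29) and that of SEC31A to SEC31B by 0.32 (pooled SD 0.16). The log2 ratio of SEC24A to SEC24D was lower in drug-loaded MNs by 0.43 (-0.43, pooled SD 0.28). That of COPZ1 to COPZ2 differed by -0.76, with HS libraries at -1.17 and -0.33. With 1 library left out, the difference ranged from 0.27 to 0.77 for SEC61A1 to SEC61A2, from 0.16 to 0.48 for SEC31A to SEC31B, from 0.24 to 0.49 for LMAN1 to LMAN2, from -0.65 to -0.20 for SEC24A to SEC24D and from -1.18 to -0.34 for COPZ1 to COPZ2. Over all 4 libraries the groups did not overlap in 6 of 7 pairs and overlapped in DERL1 to DERL2 (difference 0.02, pooled SD 0.10). The share without overlap over other gene pairs was not measured, and the genes were chosen with earlier results of these data known. With 2 libraries a group the smallest two-sided p of an exact permutation test is 0.333, and the ratios were left untested.

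**Figure D4:**
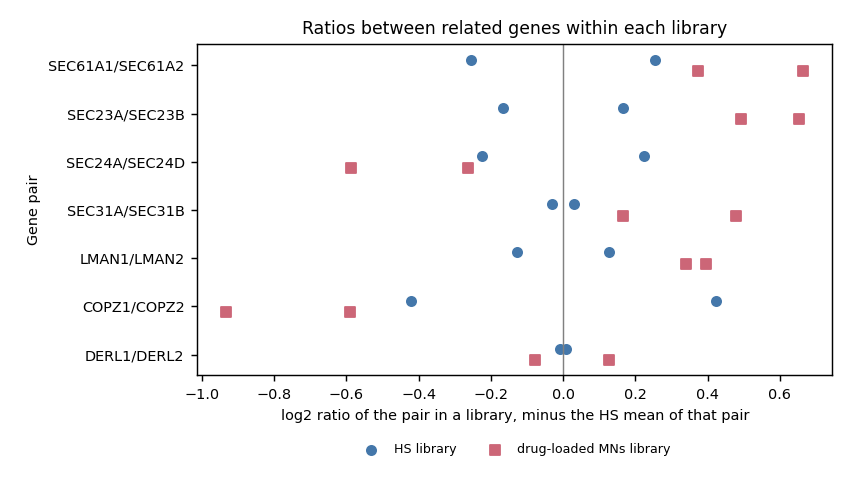
Log2 ratio of 7 pairs of related genes in each HS (blue circles) and drug-loaded MNs (red squares) library, with the HS mean of each pair set to 0. Both squares lie on the same side of the circles in every pair but DERL1/DERL2, to the left for the pairs SEC24A/SEC24D and COPZ1/COPZ2. In DERL1/DERL2 the squares lie on either side of the circles.

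The HS libraries did not differ in the same way over the pathway. Of the 46 genes, 25 were higher in HS replicate 1 and 21 in HS replicate 2. Of all 9348 genes tested, 3764 were higher in HS replicate 1. All 4 SRP genes, both DERL genes and 6 of 9 cargo receptors were higher in HS replicate 1. In HS replicate 2, 9 of 13 COPII genes were higher, which was also the direction of most genes tested. The median log2 difference, HS replicate 1 minus HS replicate 2, was -0.21 for the COPII genes and -0.12 over all genes. The median absolute difference between the HS libraries was 0.26 on the log2 scale, and that between the drug-loaded MNs libraries 0.12, against 0.33 and 0.23 over all genes tested. In 19 of the 46 genes the difference between the groups was larger than that between the HS libraries. The same share over all genes was not measured.

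Other genes of the pathway were described from lists. The counts of their genes that were higher at an unadjusted p under 0.05 stand against 7.26% of all genes. Of 11 tested genes that modify or chaperone procollagen, 9 were higher in drug-loaded MNs, also under both other scalings, 3 of them at an unadjusted p under 0.05 against 0 in the lower direction. Their median was 0.49. Without HS replicate 2 this median was 0.27, against 0.19 for all genes, and without HS replicate 1 it was 0.74, against 0.04. P4HA3, a prolyl hydroxylase subunit, had the largest value, 0.78, with 14.6 and 12.96 units in HS and 21.9 and 26.9 units in drug-loaded MNs. P3H2, a prolyl 3-hydroxylase, had the lowest, -0.36. Of the 12 tested unfolded protein response genes, 9 were higher, 1 at an unadjusted p under 0.05 and none lower at that level, with a median of 0.20 (0.06 under median ratio scaling). That gene was CREB3L1, an ER-membrane transcription factor of matrix-secreting cells, which stood at 9.62 and 20.9 units in HS and 29.7 and 39.5 units in drug-loaded MNs. The groups did not overlap (log2 fold change 1.21, SE 0.37, adjusted p 0.411 in limma). HERPUD1 had the lowest value, -0.18.

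Of the 10 other ER chaperones and oxidoreductases, 8 were higher, 1 at an unadjusted p under 0.05 and none lower at that level, with a median of 0.16 (0.01 under median ratio scaling). The highest was UGGT2, a relative of the sensor that marks misfolded glycoproteins, at 14.4 and 19.6 units in HS and 34.4 and 34.8 units in drug-loaded MNs (log2 fold change 0.998, SE 0.26, adjusted p 0.344 in limma), and the lowest TXNDC11 at -0.10. The 7 oligosaccharyltransferase genes had a median of 0.17 (0.03 under median ratio scaling and 0.07 without drug-loaded MNs replicate 1), from -0.59 (TUSC3) to 0.31 (STT3B). The 9 Golgi matrix genes had a median of 0.25 (0.11 under median ratio scaling and 0.08 without drug-loaded MNs replicate 1), from -0.01 (GORASP1) to 0.41 (TRIP11). The 20 table entries for receptors and GTPases of early transport had a median of 0.10 (-0.04 under median ratio scaling), from -0.24 (the lower of 2 entries named RAB2A) to 0.70 (ERGIC1, at 2.40 to 6.13 units). In these 3 lists 0 genes had an unadjusted p under 0.05 in limma in either direction. An adjusted p of 0.05 was reached by 0 genes of these 6 lists.

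**Figure D5:**
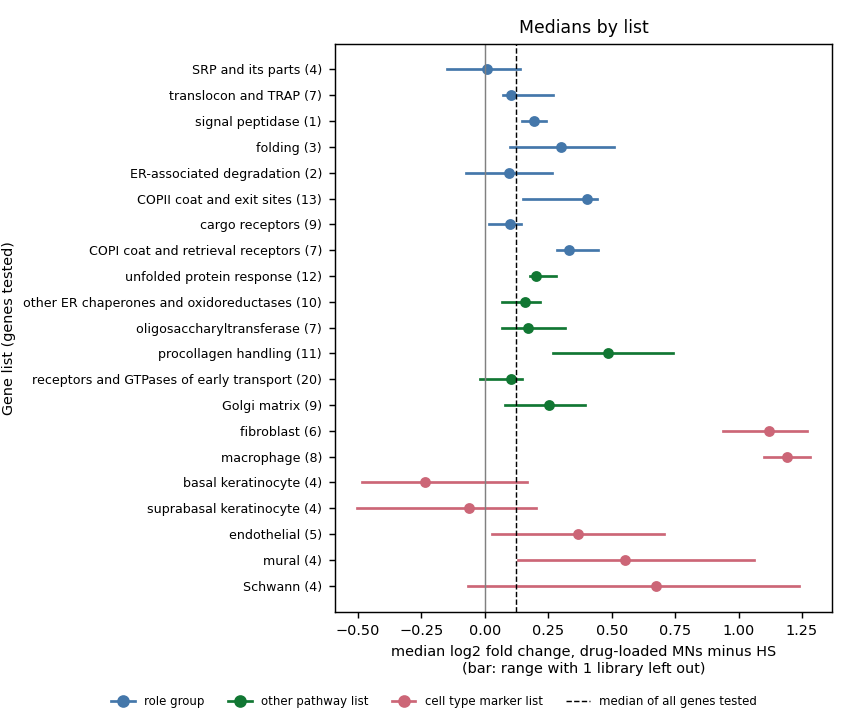
Median log2 fold change (drug-loaded MNs minus HS) of the role groups (blue), the other pathway lists (green) and cell type marker lists (red), with the range when 1 library is left out as a bar and the median of all genes tested (0.12) as a dashed line. The COPII (0.40), COPI (0.33) and procollagen handling (0.49) medians lie to the right of that line with their whole bars. So do those of the signal peptidase (0.19, 1 gene), the unfolded protein response (0.20) and the mural markers (0.55). The fibroblast (1.12) and macrophage (1.19) medians lie farther to the right. The line is that of all libraries, and with 1 library left out the median of all genes ranged from 0.04 to 0.19.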

How the data were processed

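The authors processed the reads with Cell Ranger, counted unique molecular identifiers per sample, filtered cells and continued in Seurat. The submitters' processing notes list Cell Ranger 2.1.1 and the mouse build mm10, although the gene identifiers are those of rabbit, so the build is unclear and no coordinates are given. The deposited table is named for FPKM, but each column totals 10000, and how cells were combined was not stated. Whether a batch correction that the methods mention had touched the values was not stated either. Depth is therefore unknown, and how doublets were treated is not given in the sources used here.

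Columns were rescaled to a total of 1000000, a gene entered the test if its mean was 1 unit or more, and log2(value + 1) was fitted with limma 3.58.1 (R 4.3.3, variance trend), with two-sided p-values adjusted by the Benjamini-Hochberg method over all 9348 genes and a threshold of 0.05. Fold changes on this scale understate those of low genes. Each library came from its own scar tissue, described in the study as biologically independent samples. The labels tie no tissue to an animal. Named genes were those at an unadjusted p under 0.05, those with the highest mean, largest rise or largest fall of each role group, pairs of related genes, and the extremes of the other lists; further genes are given as examples chosen after their values were seen. Members and lists were chosen with earlier results of these data known. Of the 47 symbols, 45 matched 1 gene of the RefSeq table of mOryCun1.1. There SEC22C, SEC31B, TMED5 and COPB2 overlap another coding gene, with which reads could be shared.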

Additional observations from a re-analysis of the deposited data

How the results depend on the processing

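The count of secretory pathway genes past an adjusted p of 0.05 was 0 in limma under all 14 alternatives. The count at an unadjusted p under 0.05 was 2 with median ratio scaling (against 5.29% of all genes), 3 with quantile normalization (4.58%), and ranged from 1 to 6 with 1 library left out (4.13% to 12.6%). Their median log2 fold change (0.23) came to 0.0887 with median ratio scaling and 0.142 with quantile normalization, where the median of all genes was -0.01 and -0.02, and ranged from 0.152 to 0.258 with 1 library left out. Without HS replicate 2 it exceeded the median of all genes by only 0.0068. The genes higher without overlap numbered 14 (median ratio) and 19 (quantile), a comparison chosen after seeing the data, and 5 and 4 were lower. Of all genes, 18.4% and 16.8% were higher and 20.5% and 20.7% lower without overlap.

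Over all genes, the count past the threshold (4) fell to 0 with either other scaling (median ratio or quantile), with a total that left out abundant genes, with a pseudocount of 5 and with no filter, and to 1 without the variance trend. It ranged from 0 to 75 with 1 library left out, with a lone library taken to vary as much as the opposite group. With the replicate number as a block it was 241, and 0 of the 46 genes passed. Same-numbered libraries share no more than the number, and the correlation of their deviations across genes was 0.22, from 2 pairs.

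Of 24 named members, 13 kept their direction in all 14 alternatives. Under median ratio scaling log2 fold changes were -0.04 for DERL1 and TMED9, -0.08 for SRP14 and SRP54, -0.07 for SSR3 and -0.06 for COPZ1 and DERL2. Under quantile normalization they were -0.02 for SRP54, -0.08 for SEC31B, -0.005 for COPZ1 and -0.01 for DERL2. With 1 library left out, ranges were -0.07 to 0.28 for DERL1, -0.09 to 0.21 for SRP14, -0.05 to 0.18 for SRP54, -0.10 to 0.30 for TMED9, -0.36 to 0.02 for TMED7, -0.12 to 0.27 for SSR3, -0.05 to 0.01 for SEC23B, -0.08 to 0.58 for SEC24A, -0.04 to 0.39 for SEC31B and -0.08 to 0.25 for DERL2. Apart from the settings' own construction, the cause was not tested. Count tests were not run, since the table holds no counts. With depth unknown, its limits were not measurable.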
